A study of Mus musculus with 6 samples.

Results

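The unfolded protein response and the chaperones of the endoplasmic reticulum (ER) were followed in the mucosa of the terminal ileum through 32 genes chosen for their known function. They are 6 stress sensors and transcription factors, 14 ER chaperones and folding enzymes, 7 genes of ER-associated degradation and protein entry into the ER, and 5 genes downstream of ATF4 and CHOP. All 32 were on the array, among 18193 genes with a single symbol, and each was read by its brightest probe set of 72 in all. The samples were 3 wt and 3 duoxa-/- pools of 3-month-old female 129S6 mice, each pool made of RNA from 2 to 3 animals of 1 genotype in 1 cage. The genotypes were cohoused littermates, and each of the 3 cages held 1 litter, so that a cage gave 1 pool of each genotype. Duoxa-/- mice lack maturation factors without which the hydrogen peroxide-releasing dual oxidases (DUOX) do not arrive at the plasma membrane, and the comparison asked how ileal expression differs without them. The labels name no tissue-specific driver for the deletion, and the sources used here do not give the part of the locus removed.

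Secretory cells fold their products in the ER with the help of the chaperone BiP (Hspa5), the lectin chaperones calnexin and calreticulin and disulfide isomerases. When unfolded protein accumulates, IRE1 splices the mRNA of Xbp1, ATF6 is cut free from the membrane, and PERK phosphorylates eIF2alpha, which favours translation of ATF4. XBP1 and ATF6 raise chaperone and degradation genes, and ATF4 raises amino acid and stress genes such as Asns, Trib3 and Ddit3 (CHOP). Goblet cells, Paneth cells and plasma cells, which export much protein, are known to lean on this pathway in the gut.

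Several members share a regulatory sequence, the ER stress response element (ERSE), a CCAAT box followed at a fixed distance by CCACG, which ATF6 and XBP1 with NF-Y are known to bind. RefSeq promoters (GRCm38.p6, 250 bases before to 50 bases after the start; a C57BL/6J reference, not 129S6) were held for 26 members, and both strands were searched for CCAAT, 9 bases of any kind and CCACG. It was found in 9 of the 26 promoters (Hspa5, Hsp90b1, Creld2, Pdia6, Dnajc3, Canx, Calr, Syvn1 and Derl3), against 0.119% of all 32851 promoters of the same length. The related ERSE-II, which is ATTGG, 1 base of any kind and CCACG, was found in 2 of 26 (Herpud1 and Dnajb11), against 0.0365% of all. The 2 motifs share the letters CCACG. The following are shown because the values of these genes by pool are described below. All hold the ERSE except Herpud1, which holds the ERSE-II, and whether the genes differ from each other was not tested. Each runs 5′ to 3′ on the gene's strand, with the motif in capitals (for Creld2, Calr and Hsp90b1 on the other strand, from CGTGG to ATTGG).
Hspa5 (chr2:34772017-34772051, plus strand): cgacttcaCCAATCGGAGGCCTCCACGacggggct
Creld2 (chr15:88819512-88819546, plus strand): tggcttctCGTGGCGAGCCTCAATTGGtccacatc
Pdia6 (chr12:17266483-17266517, plus strand): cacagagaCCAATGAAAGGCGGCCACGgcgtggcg
Dnajc3 (chr14:118937819-118937853, plus strand): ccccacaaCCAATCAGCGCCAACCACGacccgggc
Hsp90b1 (chr10:86705525-86705559, minus strand): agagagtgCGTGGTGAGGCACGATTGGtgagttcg
Calr (chr8:84847067-84847101, minus strand): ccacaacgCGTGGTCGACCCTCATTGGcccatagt
Syvn1 (chr19:6046524-6046558, plus strand): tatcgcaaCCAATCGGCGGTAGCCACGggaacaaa
Herpud1 (ERSE-II, chr8:94386369-94386395, plus strand): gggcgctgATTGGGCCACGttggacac

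The Hspa5 element lies 65 to 47 bases before the start and that of Creld2 126 to 108 bases before it. Hsp90b1 holds another ERSE farther upstream, 212 to 194 bases before its start. The motif TGATGNAAT, a form of the C/EBP-ATF element through which ATF4 acts, was found in 0 of the 26 member promoters and in 0.965% of all, which says only that these letters are not in this window. A match is a description of the reference sequence and not of binding in these mice.

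Array medians ran from 6.55 to 6.60 (deposited log2 scale), and any 2 arrays correlated over probe sets at 0.994 to 0.998. The wt pool of cage 1 stood farthest from the rest (mean r = 0.994) and had the highest smooth muscle marker values. As a check of the labels, Duoxa2 read 8.81, 8.36 and 7.24 in the wt pools of cages 1, 2 and 3 and 5.90, 5.55 and 5.92 in the duoxa-/- pools, with no overlap. The ileal markers Fabp6 and Slc10a2, the ileal bile acid binding protein and bile acid transporter, had means of 14.72 and 12.33 in wt pools. None of the 32 members had a mean below the median of all probe sets, 6.58. Values of different probe sets are not compared with each other as levels, since probes differ in brightness. All values rest on 1 array a pool, which limits their precision, and fewer cells of a type cannot be told apart from less RNA per cell in such pools.

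No member passed the test between genotypes, and the ER chaperones were the group with the largest share of members higher in duoxa-/- pools. With limma, 0 of 32 members passed at an adjusted p under 0.05, as did 0% of all 18193 genes in either direction, and with cage as a replicate block the counts were 0 of 32 and 0% too. Duoxa2, with a difference of -2.34 (0.197-fold) and the smallest unadjusted p of all genes, did not pass either (limma adjusted p = 0.760). A member that did not pass is therefore not shown to be unchanged. At an unadjusted p under 0.05, 1 member (Pdia6) passed in each fit, against 5.53% of all genes without the block and 6.41% with it. The members' adjusted p lay between 0.811 and 0.997. Differences were small, from -0.35 for Creb3l1 to 0.32 for Creld2, or 0.783-fold to 1.25-fold, with standard errors from 0.07 to 0.27. Of the 32, 19 were higher and 13 lower in duoxa-/- pools, against 46.1% of all genes higher. That share depends on the setting. The median difference of all genes was 0.0082 without genes dimmer than the median of all probe sets and 0.0036 after quantile normalisation. Most genes were thus higher in duoxa-/- pools in these 2 settings. The median difference was 0.13 for the chaperones, -0.03 for sensors and transcription factors, -0.0039 for degradation and entry genes and -0.06 for the ATF4 and CHOP branch, beside -0.01 for all genes. These are counts and medians of genes chosen with earlier results known, and no list was tested.

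**Figure D1:**
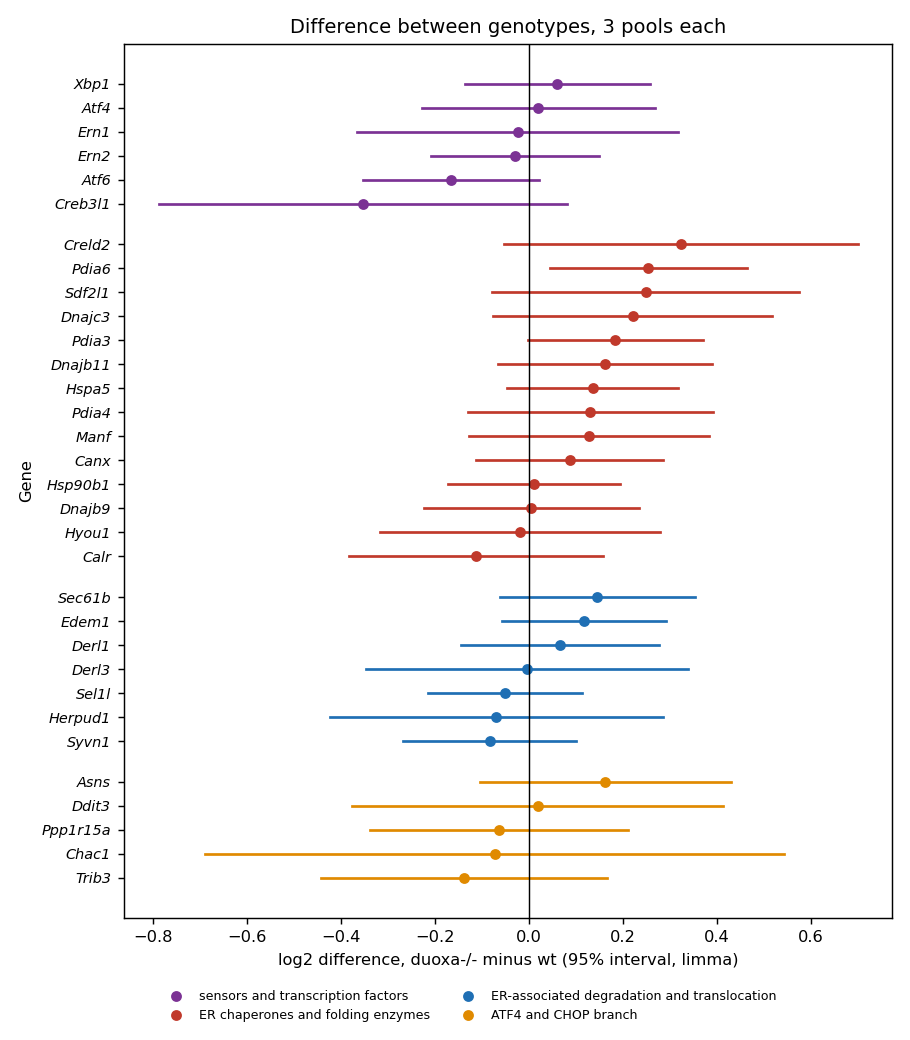
Log2 difference between duoxa-/- and wt pools for each member (point, limma estimate over 3 pools a genotype; line, 95% interval), grouped by role and ordered within a role. Of the 14 chaperones 12 lie above 0, and the interval excludes 0 for Pdia6 alone, before any adjustment for the number of genes.

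Among the ER chaperones and folding enzymes, 12 of 14 were higher on average in duoxa-/- pools, where 46.1% of all genes were. All 14 are bright, and without dim genes or after quantile normalisation most genes were higher, as given above. The list median was 0.13 in both of these settings too. In cage 1 it was 11 of 14, in cage 2 again 12 of 14 and in cage 3 only 5 of 14, against 50.5%, 42.2% and 50.0% of all genes. The cage medians of the 14 were 0.20, 0.25 and -0.07. Higher in cages 1 and 2 and lower in cage 3 were 8 of the 14, a pattern of 10.2% of all genes. A difference of 0.2 or more in both cage 1 and cage 2 was seen for 4 of them, Creld2, Sdf2l1, Dnajb11 and Pdia6, and for 2.94% of all genes. The choice of cages and the cut of 0.2 were not among the planned results, so these counts only describe the values. With both pools of cage 3 left out the list median was 0.25 with 12 of 14 higher, and without the wt pool of cage 3 alone it was 0.20 with 10 of 14 higher. The smallest adjusted p among all members was then 0.579 and 0.482. The median was 0.10 without cage 1, 0.11 without cage 2, and 0.09 with 13 of 14 higher without the wt pool of cage 1. Whether the genotype difference itself differs between cages cannot be tested with 1 pool a genotype in each.

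Creld2, a secreted disulfide isomerase-like protein induced by ER stress, had the highest difference of the members. It read 9.94, 10.28 and 10.54 in the wt pools of cages 1, 2 and 3 and 10.57, 10.79 and 10.37 in the duoxa-/- pools. The 2 highest values belonged to duoxa-/- pools and the lowest to a wt pool, but the groups overlapped through cage 3, where the wt pool was the higher. The means were 10.25 ± 0.30 and 10.58 ± 0.21 (SD, n = 3), a difference of 0.32 with a 95% interval of -0.05 to 0.70 and a limma adjusted p of 0.811. The difference was 0.17 without the wt pool of cage 1 and 0.57 without both pools of cage 3.

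Sdf2l1, a component of the BiP chaperone cycle, showed the same signs by cage. It read 10.00, 10.24 and 10.53 in wt and 10.48, 10.68 and 10.36 in duoxa-/- pools, so that the difference was 0.48 and 0.44 in cages 1 and 2 and -0.17 in cage 3. Over the 3 cages it came to 0.25 (SE 0.14; limma adjusted p = 0.811). Leaving out 1 pool at a time, it was 0.12 (cage 1 wt left out), 0.16 (cage 2 duoxa-/-) and 0.38 (cage 3 wt). Manf, a secreted protein retained in the ER with BiP, read 12.06, 12.05 and 12.37 in wt and 12.24, 12.43 and 12.20 in duoxa-/- pools, again with the wt pool of cage 3 above that of its littermates. Both genes are represented by 1 probe set each, so that no other probe set bears on them.

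Hspa5, which encodes BiP, the abundant HSP70 of the ER and its main stress reporter, read 13.53, 13.62 and 13.69 in wt pools and 13.76, 13.80 and 13.69 in duoxa-/- pools. The pools of cage 3 coincided, and those of cages 1 and 2 were higher in duoxa-/- mice by 0.23 and 0.18. The difference of 0.14 had a 95% interval of -0.05 to 0.32 (limma adjusted p = 0.811). Of its other probe sets, the brighter gave 0.14 and the dimmer -0.08.

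The J-domain partners of BiP were uneven. Dnajb11 (ERdj3), which delivers substrates to BiP, read 10.84, 11.01 and 11.13 in wt and 11.15, 11.27 and 11.06 in duoxa-/- pools. Dnajc3 (p58IPK) read 11.55, 11.52 and 11.86 in wt and 11.72, 12.09 and 11.78 in duoxa-/- pools, with the duoxa-/- pool of cage 2 the highest. All 4 of its other probe sets were also higher in duoxa-/- pools, by 0.05 to 0.21. Dnajb9 (ERdj4), a textbook target of XBP1, differed by 0.01 (95% interval -0.22 to 0.23), with values of 11.65 to 11.88 in wt and 11.59 to 11.84 in duoxa-/- pools.

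Protein disulfide isomerases, which form and shuffle disulfide bonds, included the members with the least overlap. Pdia6 read 10.64, 10.72 and 10.75 in wt and 10.93, 11.11 and 10.84 in duoxa-/- pools, and every duoxa-/- pool lay above every wt pool. Its difference was 0.25 with a 95% interval of 0.05 to 0.46 (limma adjusted p = 0.811). Pdia3 (ERp57), the isomerase that works with calnexin and calreticulin, read 12.67, 12.57 and 12.75 in wt and 12.82, 12.91 and 12.82 in duoxa-/- pools, also without overlap, and differed by 0.18 (SE 0.08; limma adjusted p = 0.811). Its dimmer probe set differed by -0.01 (SE 0.10), and the mean of both gave 0.085. Pdia4 (ERp72) read 10.26, 10.48 and 10.41 in wt and 10.60, 10.65 and 10.29 in duoxa-/- pools, where the duoxa-/- pool of cage 3 was below 2 of the wt pools. Pools without overlap, duoxa-/- above wt, were found for 4 of the 32 members (Pdia3, Pdia6, Edem1 and Sec61b) against 5.08% of all genes, and the reverse for 0 of 32 against 6.46%. Without the wt pool of cage 1, duoxa-/- pools lay above wt pools for 5 of 32, with Hyou1 added, against 7.56% of all genes. Among the 40 probe sets of members not used here, a probe set each of Hyou1 (-0.19) and Syvn1 (-0.13) had every duoxa-/- pool below every wt pool. Such probe sets of Atf4, Dnajc3, Hsp90b1, Sel1l and Xbp1 had every duoxa-/- pool above. The dimmest of them, of Atf4, had a mean of 4.82, below the median of all probe sets, 6.58. The share of all probe sets without overlap was not counted, so these are named only as a description.

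**Figure D2:**
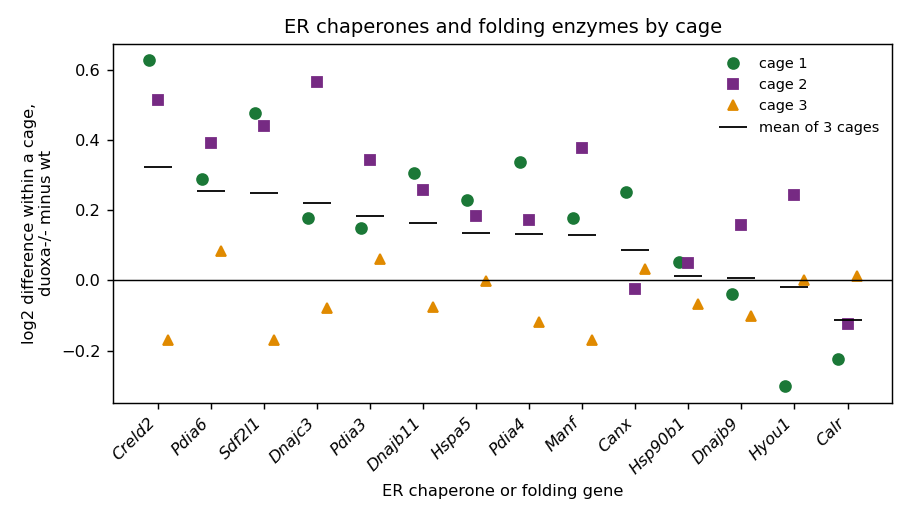
Log2 difference between the duoxa-/- and the wt pool of the same cage for the 14 ER chaperones and folding enzymes (symbols, 1 pair of pools each; dash, mean of the 3 cages). The triangles of cage 3 lie below 0 for 9 of the 14, among them Creld2 (-0.17), while cages 1 and 2 are above 0 for most genes.

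The lectin chaperones Calr and Canx and the HSP110 chaperone Hyou1 did not show the signs of Creld2 and Sdf2l1 by cage, and the HSP90 chaperone Hsp90b1 showed them at a small size (0.05, 0.05 and -0.07 in cages 1, 2 and 3). Calr (calreticulin) read 13.57, 13.42 and 13.15 in wt and 13.35, 13.30 and 13.16 in duoxa-/- pools, lower in duoxa-/- mice in cages 1 and 2, and all 3 of its probe sets had a negative difference, -0.11 for the one used here. Canx (calnexin) read 13.16, 13.29 and 13.16 in wt and 13.41, 13.27 and 13.20 in duoxa-/- pools. Hyou1 (GRP170) read 10.94 in the wt pool of cage 1 and 10.50 to 10.75 in the other 5 pools, and its other probe sets disagreed in sign (-0.19 and 0.18).

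Hsp90b1 (GRP94) depended on the probe set. The brighter of its 2 probe sets read 13.07, 13.07 and 13.02 in wt and 13.12, 13.12 and 12.95 in duoxa-/- pools, a difference of 0.01 (95% interval -0.17 to 0.20). The dimmer, at a mean of 12.44 over the 6 pools, differed by 0.42 (SE 0.13), with 0.33, 0.74 and 0.18 in cages 1, 2 and 3 and no overlap between the genotypes. It was noticed after its value was seen, and the mean of both probe sets gave 0.21. Over the 21 members with more than 1 probe set, 29 of the 40 probe sets not used here had the sign of the one used.

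Members with an ERSE in the promoter window did not all have a difference of the same sign. Of the 9, 6 were higher in duoxa-/- pools with a median of 0.09 and a range from -0.11 (Calr) to 0.32 (Creld2), and of the 17 others with a promoter sequence 11 were higher with a median of 0.02. The cage medians of the 9 were 0.23, 0.05 and -0.07.

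Of the sensors and transcription factors, 4 of 6 were lower in duoxa-/- pools, and Creb3l1 and Atf6 had the most negative differences. Creb3l1 (OASIS), an ER-bound factor of secretory and matrix-forming cells, read 9.48, 8.86 and 8.65 in wt and 8.66, 8.68 and 8.59 in duoxa-/- pools. Its wt pool of cage 1 stood above the other 5 pools, which lay between 8.59 and 8.86. The difference was -0.35 (95% interval -0.79 to 0.08; limma adjusted p = 0.811), and -0.82, -0.18 and -0.06 in cages 1, 2 and 3. In that pool the smooth muscle markers were also highest, on average 0.47 above their mean over the 6 pools. The enterocyte and goblet cell markers were highest there too, each by 0.10. The part of these lists in the value of Creb3l1 was not tested. Leaving that pool out gave -0.11.

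Atf6, the sensor cleaved in the Golgi, read 9.49, 9.63 and 9.62 in wt and 9.41, 9.34 and 9.50 in duoxa-/- pools, lower in duoxa-/- than in wt mice of each cage (-0.08, -0.29 and -0.13). Its interval ran from -0.35 to 0.02, and both other probe sets shared the sign (-0.08 and -0.0076). Xbp1 read 13.09, 13.18 and 13.01 in wt and 13.26, 13.12 and 13.08 in duoxa-/- pools, a difference of 0.06 (95% interval -0.14 to 0.26). The sources used here do not say whether its probe sets tell spliced from unspliced Xbp1 mRNA, so that the activity of IRE1 was not measured.

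Ern1 (IRE1alpha) was lowest in both pools of cage 3 and read 9.94, 10.10 and 9.62 in wt and 10.01, 9.96 and 9.62 in duoxa-/- pools. Ern2 (IRE1beta), the form of mucus-secreting epithelium, was the flattest sensor, at 7.74, 7.84 and 7.77 in wt and 7.68, 7.83 and 7.76 in duoxa-/- pools, and differed by -0.03 (95% interval -0.21 to 0.15). Atf4, which is controlled mainly by translation, read 11.60, 11.38 and 11.53 in wt and 11.39, 11.72 and 11.46 in duoxa-/- pools, with opposite signs in cages 1 (-0.21) and 2 (0.34).

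**Figure D3:**
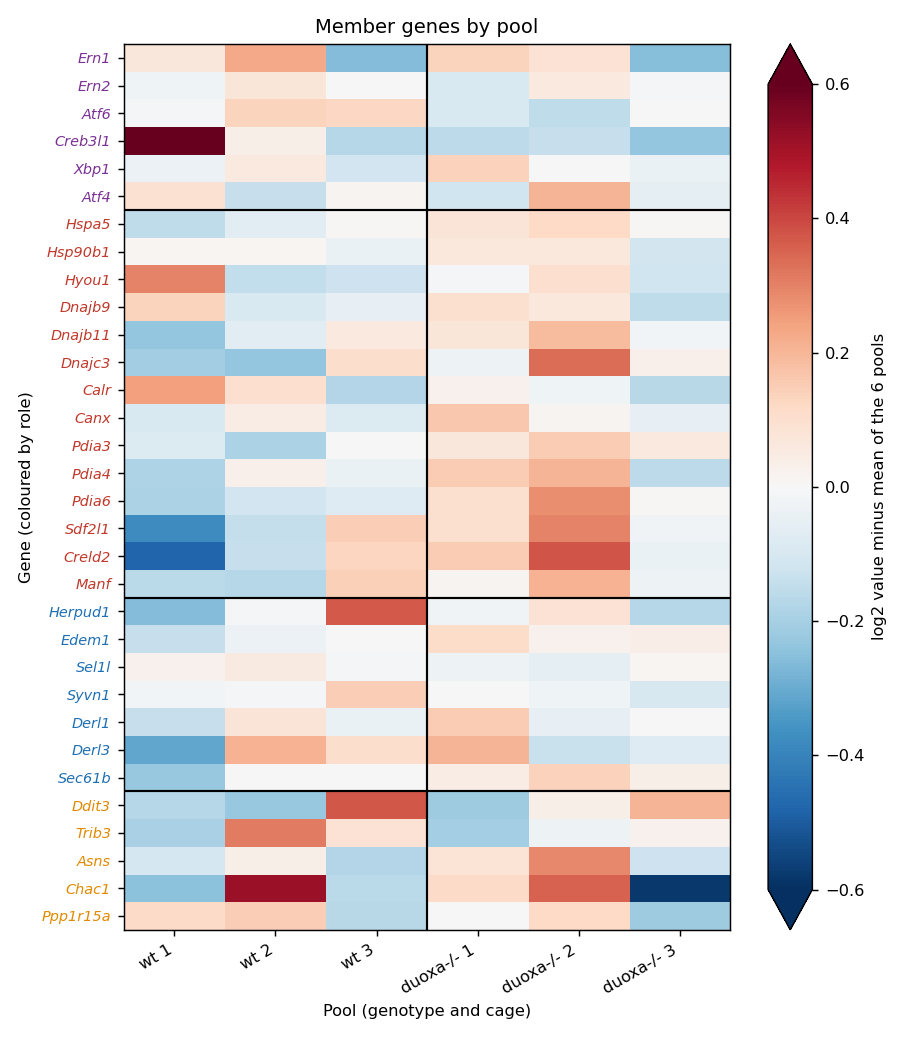
Each member's log2 value in each pool minus its mean over the 6 pools (colour, saturating at 0.6 on either side), with genes grouped by role from top to bottom and wt pools left of the vertical line. Creld2 and Sdf2l1 are lowest in the wt pool of cage 1 and highest in the duoxa-/- pool of cage 2, while Creb3l1 stands out in the wt pool of cage 1.

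The ER degradation and entry genes were split, with 3 of 7 higher and 4 lower. Edem1, a mannosidase-like protein that marks misfolded glycoproteins, read 11.19, 11.28 and 11.32 in wt and 11.43, 11.35 and 11.36 in duoxa-/- pools, a separation of the groups by a narrow gap. Its other probe set had the opposite sign (-0.05). Sec61b, a subunit of the channel through which proteins enter the ER, read 12.88, 13.10 and 13.11 in wt and 13.15, 13.24 and 13.14 in duoxa-/- pools, and differed by 0.15 (95% interval -0.06 to 0.35; limma adjusted p = 0.811).

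Herpud1, a membrane component of the degradation complex and a stress reporter, was high in the wt pool of cage 3. It read 11.49, 11.74 and 12.11 in wt and 11.73, 11.83 and 11.58 in duoxa-/- pools, so that it was higher in duoxa-/- mice by 0.24 and 0.09 in cages 1 and 2 and lower by a difference of -0.54 in cage 3. Its second probe set gave 0.16, 0.06 and -0.42, and leaving out cage 3 turned the mean difference from -0.07 to 0.17.

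Derl3, a derlin of secretory cells, read 8.80, 9.33 and 9.22 in wt and 9.32, 8.98 and 9.04 in duoxa-/- pools, a difference of 0.51 in cage 1 and of -0.34 and -0.18 in the others. The plasma cell markers had cage medians of 0.56, -0.14 and -0.09 and the T cell markers of 0.55, -0.69 and -0.31, the same signs as Derl3. The part of either list in the values of Derl3 was not tested. Derl1, the broadly expressed derlin, differed by 0.07 (95% interval -0.14 to 0.28). The ubiquitin ligase Syvn1 (HRD1) and its partner Sel1l differed by -0.08 and -0.05, with wt values of 10.21 to 10.37 and 11.40 to 11.46 and duoxa-/- values of 10.13 to 10.23 and 11.35 to 11.42. The mean of all 5 probe sets of Sel1l turned its sign, to 0.12.

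In the ATF4 and CHOP branch the highest and lowest cage means lay a median of 0.34 apart, against 0.15 for all genes. The median absolute genotype difference was 0.07, against 0.08 for all genes. A range over 3 cages and a difference between genotypes are unlike measures, so each is read against all genes only. Asns, asparagine synthetase, was the only one of the 5 that was higher in duoxa-/- mice of every cage, a pattern of 13.5% of all genes: it read 10.46, 10.60 and 10.38 in wt and 10.64, 10.85 and 10.44 in duoxa-/- pools. Its difference of 0.16 had a 95% interval of -0.10 to 0.43. Ddit3 (CHOP), the death-linked transcription factor, read 8.55, 8.50 and 9.10 in wt and 8.51, 8.76 and 8.93 in duoxa-/- pools. By this probe set both pools of cage 3 were above the other 4. The dimmer probe set of Ddit3 differed by 0.27 (SE 0.22), with -0.22, 1.05 and -0.02 in cages 1, 2 and 3. By the dimmer probe set the duoxa-/- pool of cage 2 was the highest, at 8.29, above both pools of cage 3.

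Trib3, a pseudokinase that restrains ATF4 and CHOP, read 7.98, 8.49 and 8.26 in wt and 7.97, 8.15 and 8.20 in duoxa-/- pools, a difference of -0.14 (SE 0.13). Its dimmer probe set differed by -0.26 (SE 0.12), with -0.20, -0.41 and -0.17 in cages 1, 2 and 3. Chac1, a glutathione-degrading enzyme induced through ATF4, had the widest range of the members. It read 7.42, 8.18 and 7.50 in wt and 7.78, 8.02 and 7.08 in duoxa-/- pools, with both pools of cage 2 on top. Ppp1r15a (GADD34), which lets eIF2alpha be dephosphorylated, read 8.09, 8.13 and 7.82 in wt and 7.98, 8.10 and 7.77 in duoxa-/- pools, lowest in both pools of cage 3. Trib3 and Ppp1r15a were lower in duoxa-/- mice of every cage, 2 of the 5 genes of the branch, a pattern of 16.6% of all genes.

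Between cages, limma's F-test with genotype in the fit called 0 of 32 members at an adjusted p under 0.05, against 0.0110% of all genes, which was 2 genes. At an unadjusted p under 0.05 it was 4 of 32 (Chac1, Ern1, Ddit3 and Ppp1r15a) against 6.21% of all genes, and 3 of these 4 belong to the 5 of the ATF4 and CHOP branch. The adjusted p was 0.645 for Chac1, whose cage means were 7.60, 8.10 and 7.29, and 0.659 for Ern1 (9.98, 10.03 and 9.62). For Ddit3 it was 0.714, with cage means of 8.53, 8.63 and 9.01. For Ppp1r15a it was 0.777, with cage means of 8.04, 8.12 and 7.79. By these cage means of the probe sets used, Ddit3 was highest in the cage in which Chac1, Ern1 and Ppp1r15a were lowest. The median distance between the highest and lowest cage mean was 0.34 for the 5 genes of this branch, 0.16 for the chaperones and 0.15 for all genes. It was 0.22 for the 28 other ATF4 programme genes described below, of which 3 had an unadjusted F-test p under 0.05.

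**Figure D4:**
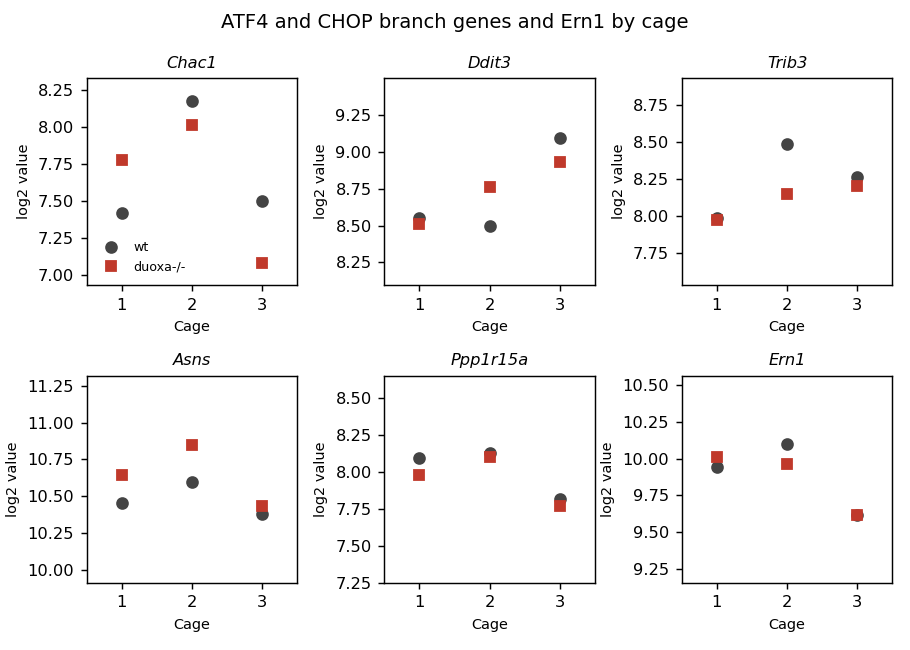
Deposited log2 values of the 5 ATF4 and CHOP branch genes and Ern1 by cage (circles, wt pools; squares, duoxa-/- pools; 1 pool a symbol, all panels spanning the same log2 range). In cage 3 both pools are lowest for Ppp1r15a and Ern1 and highest for Ddit3 as read by its brightest probe set, and in cage 2 both are highest for Chac1.

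Other genes of the same pathway, taken from lists that hold none of the 32, read as follows, with 0 passing in any list in either fit. Of 26 other ER folding genes 22 were higher in duoxa-/- pools, 9 of them in all 3 cages, against 46.1% and 13.5% of all genes, and the median was 0.08. Agr2 and Mzb1 of this list also stand among the goblet and plasma cell markers. The 3 with the smallest p were Sil1, the nucleotide exchange factor of BiP (0.23, SE 0.08), Erp29, an isomerase-like chaperone (0.20, SE 0.09), and Tmx1, a membrane-bound isomerase (0.21, SE 0.10). Their cage 3 differences were 0.23, 0.05 and 0.11, above 0 in each, which their choice by p over pools that include cage 3 favours. Of the whole list, 17 of 26 were higher in cage 3 with a median of 0.02, against 50.0% of all genes.

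Genes of ER entry and N-glycosylation had 18 of 23 higher and 9 higher in all 3 cages, with a median of 0.06. Led by p, they were the signal peptidase subunits Spcs2 (0.19, SE 0.09) and Spcs3 (0.16, SE 0.08) and the oligosaccharyltransferase subunit Ostc (0.17, SE 0.08), and for all 3 the duoxa-/- pools lay above the wt pools. Pools without overlap in this direction were seen for 5 of the 23 and 4 of the 26 folding genes, against 5.08% of all genes.

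Other ER-associated degradation genes were balanced, with 11 of 21 higher and a median of 0.03, and the 3 with the smallest p were lower: Aup1 (-0.19, SE 0.08), Os9 (-0.17, SE 0.08) and Edem2 (-0.17, SE 0.09). Of 16 other sensors and factors 10 were higher (median 0.04). Eif2ak1 (HRI), the heme-regulated eIF2alpha kinase, differed by -0.38 (SE 0.14), Eif2ak2 (PKR), the interferon-induced kinase, by 0.40 (SE 0.18), with 0.09, 0.94 and 0.17 in cages 1, 2 and 3, and Eif2ak3 (PERK), the kinase of the unfolded protein response, by 0.17 (SE 0.10).

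Of 28 other ATF4 programme genes 13 were higher (median -0.03). Gars, glycyl-tRNA synthetase, was higher by 0.30 (SE 0.10), while the stress protein Nupr1 (-0.23, SE 0.09) and Slc3a2, the heavy chain of amino acid exchangers (-0.19, SE 0.08), were lower. All 3 had no overlap between genotypes, which their choice by smallest p favours. Of the 28, duoxa-/- pools lay above wt pools for 2 and below for 3, against 5.08% and 6.46% of all genes. The limma adjusted p of the 15 genes named here was 0.811 for each.

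Markers of the cell types in the mucosa moved between pools beside the chaperones. The chaperones' mean deviation from their 6-pool mean was -0.11 and -0.08 in the wt pools of cages 1 and 2, -1.1e-04 in that of cage 3, and 0.07, 0.17 and -0.05 in the duoxa-/- pools. Plasma cell markers (8 of 9 listed genes measured, 7 higher in duoxa-/- pools) lay at -0.27, 0.11 and 0.02 in wt and 0.21, 0.01 and -0.08 in duoxa-/- pools, with mean levels of 10.78 to 11.17 and 10.97 to 11.26. Paneth cell markers (6 of 9 measured, 2 higher) lay at 0.08, 0.05 and -0.06 in wt and -0.08, 0.25 and -0.23 in duoxa-/- pools, with mean levels of 12.85 to 13.00 and 12.69 to 13.17. The chaperones were highest in the duoxa-/- pool of cage 2, as were the markers of Paneth cells and of proliferating crypt cells. The chaperones were lowest in the wt pool of cage 1, as were the markers of plasma cells, T cells, B cells and proliferating crypt cells.

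Goblet cell markers (9 of 10 measured, 3 higher) stayed within -0.04 and 0.10 in all pools, with mean levels of 13.15 to 13.29 in wt and 13.16 to 13.24 in duoxa-/- pools. Markers of proliferating crypt cells (7 of 8 measured, 5 higher) lay at -0.16, 0.06 and -0.12 in wt and 0.10, 0.13 and -0.01 in duoxa-/- pools, with mean levels of 10.13 to 10.34 and 10.27 to 10.42. Enterocyte markers (11 of 11, 1 higher) lay at -0.08, -0.19 and 0.09 in duoxa-/- pools and had mean levels of 12.87 to 12.97 in wt and 12.68 to 12.96 in duoxa-/- pools. Smooth muscle markers (8 of 8, 0 higher) had mean levels of 11.68 to 12.31 and 11.50 to 11.91, T cell markers (8 of 8, 1 higher) 8.20 to 8.96 and 8.24 to 8.68, and B cell markers (5 of 6, 3 higher) 8.44 to 8.72 and 8.61 to 8.84. The part of these shifts in the chaperone values was not tested.

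**Figure D5:**
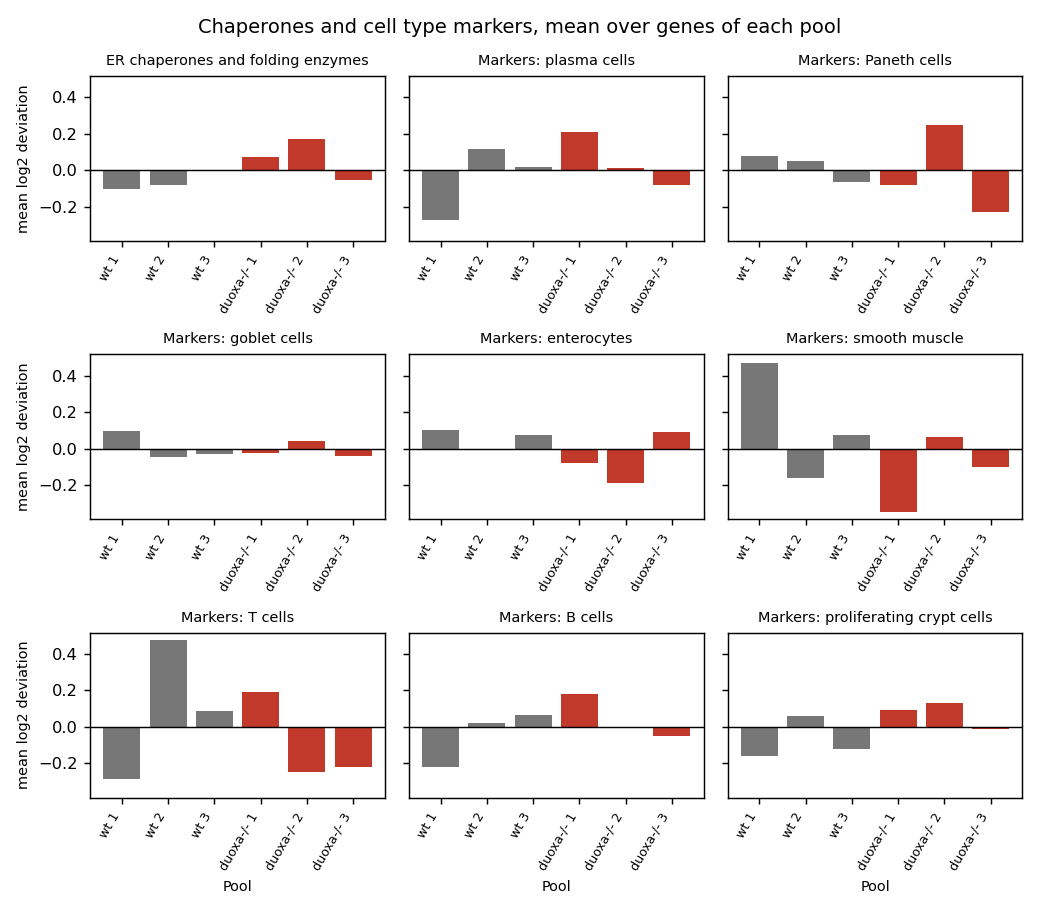
Mean over the genes of a list of each gene's log2 deviation from its 6-pool mean (bars, grey for wt and red for duoxa-/- pools, numbered by cage) for the ER chaperones and 8 lists of cell type markers. The chaperones span -0.11 to 0.17, less than the smooth muscle markers, which reach 0.47 in the wt pool of cage 1.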

How the data were processed

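Total RNA of ileal mucosa was pooled per cage and genotype and hybridised to 6 single-colour Affymetrix arrays, 1 per pool. The deposited values are log2 probe set summaries that the authors computed with RMA (affy), per the submitters' processing notes. The sources used here give no version or setting. RMA equalises the arrays and compresses differences of dim probe sets. Detection calls were not used.

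Of 45101 rows, 64 controls were left out, 34945 had 1 gene symbol, 932 several and 9160 none. Each of 18193 genes was read by its brightest probe set (mean over 6 pools). Genotypes were compared by moderated statistics of limma 3.58.1 (R 4.3.3), two-sided with Benjamini-Hochberg adjustment over all genes, on 6 pools without a cage term, and cages with its F-test. Every adjusted p is from limma. Differences are duoxa-/- minus wt, intervals and SE are from limma, and SD is over 3 pools. The tests were checked on simulated data. Named are all members, Duoxa2 and the 3 genes of smallest p in each pathway list; Fabp6, Slc10a2 and second probe sets were added after their values were seen. The members and lists were chosen with earlier results of these data known. The Paneth list includes Guca2b, which is not specific to these cells.

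Pools of a cage are littermates per the series' design text, which pairs them. The correlation over genes between the wt and the duoxa-/- pool of a cage, each taken as deviation from its group mean, was r = -0.18, 0.16 and 0.34 in cages 1, 2 and 3, and between pools of different cages it ranged from -0.44 to 0.40. The deviations of a genotype's pools cancel out for each gene, so these correlations depend on one another. They neither show nor exclude the pairing, which thus rests on the design text. P values measure the spread between pools. Alternatives were the cage as replicate block, leaving out pools and cages, other probe set rules, a filter on dim genes, quantile normalisation, array weights and another variance prior.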

Additional observations from a re-analysis of the deposited data

How the results depend on the processing

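Over 16 alternatives to the genotype fit, 0 members were called in each, and the replicate block gave 0 called genes. Leaving out pools or cages gave 0 to 1 called genes, the 1 being Duoxa2 without the wt pool of cage 3 or without cage 3. It moved the median difference of the sensors from -0.091 to 0.010, of the chaperones from 0.09 to 0.25, of the degradation and entry genes from -0.049 to 0.14 and of the ATF4 and CHOP branch from -0.14 to 0.10; array weights gave -0.021 for the last. Of the 32 members, 19 kept the sign of their difference in all 13 alternatives run for single genes and 13 did not. Between cages, 0 members were called in any of 13 alternatives. The number of genes called between cages, 2, was 0 without a genotype term, with probe sets averaged per gene, without dim genes and after quantile normalisation, 21 with a trended robust prior, and 0 to 53 when a pool was left out. Chaperones higher in duoxa-/- pools numbered 10 to 13 of 14 in the alternatives, which were added after the data were seen. The cause of these changes was not tested. The design allows 3 pools a genotype, and dim probe sets have no detection call here.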
